A study of Mus musculus with 2 samples.

Results

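The interferon-responding cells described here were vascular smooth muscle cells (VSMCs) of a pooled culture that carried transcripts of the antiviral genes Ifit1, Ifit3, Ifit3b and Rsad2. Barcodes counted as cells from 2218 gene UMIs (unique molecular identifiers, each standing for 1 captured transcript) and 200 genes upwards, and a cell was taken as interferon-responding when these 4 genes together had at least 3 UMIs. Of 13045 cells, 3708 met this rule, 1946 had 1 or 2 UMIs and 7391 had none. The cells were thus chosen by measured values, and everything below on these 4 genes is a description of the choice.

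The study asked how age and the mechanosensitive channel Piezo1 change VSMCs. Primary aortic VSMCs of C57BL/6 mice, bought from commercial suppliers and used within a few passages, were grown as 4 cultures, which were labelled with hashtag antibodies, mixed and run as 1 single-cell gene expression library with 1 hashtag library. Donor mice were 12 weeks old for the young cultures and 58 to 78 weeks old for the aged ones. For each age 1 culture received neither agent, and a further young culture received angiotensin II (AngII, 100 nM) during 48 h while a further aged culture received siRNA against Piezo1 by Lipofectamine (20 nM in the labels and methods, while the results text of the study gives a higher dose). The study states for a protein comparison that its old control cells were given non-targeting siRNA, and the labels name that pool without saying whether the sequenced aged control received it. Each hashtag was taken as 1 culture, so no difference between hashtags has a replicate and no test between them was made. The labels do not pair hashtags with cultures, and values are therefore given by hashtag number. A schematic of the study gives number 1 to the young culture, 2 to the aged one, 3 to AngII and 4 to siPiezo1, without stating that these are hashtag numbers. All 13045 cell barcodes were found in both libraries. The 13045 cells held 115033686 gene UMIs, with a median of 7915 per cell.

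Interferons are secreted proteins that bind receptors on the cell surface and, through JAK kinases and transcription factors of the STAT and IRF families, switch on interferon-stimulated genes. The products of these genes bind or degrade viral RNA, tag proteins with the ubiquitin-like ISG15, load antigen onto MHC class I and attract leukocytes. VSMCs carry interferon receptors and can make this response without being immune cells.

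Factors of these families bind a short element, the interferon-stimulated response element, in the promoters of such genes. Ifit1, Ifit3 and Ifit3b encode tetratricopeptide proteins that bind foreign RNA, and they lie side by side on chromosome 19. Rsad2 encodes viperin, a radical SAM enzyme that makes a chain-terminating nucleotide. On GRCm38 with GENCODE vM21, Ifit1 (ENSMUSG00000034459) spans chr19:34640871-34650009, Ifit3 (ENSMUSG00000074896) chr19:34583531-34588731, Ifit3b (ENSMUSG00000062488) chr19:34607970-34613401, all on the plus strand, and Rsad2 (ENSMUSG00000020641) chr12:26442746-26456452 on the minus strand. The motif GAAA-NN-GAAA, where N is any base, or TTTC-NN-TTTC on the other strand, was searched in the 250 bases before each RefSeq gene start (GRCm38.p6). All 4 genes held it, as did 978 of 32851 promoters (2.98%). The windows of 60 bases below, upstream of the gene and read in its direction, show the motif in capitals for the 4 genes that defined the cells and for Isg15 and Cxcl10, which were not used in the rule.
Ifit1: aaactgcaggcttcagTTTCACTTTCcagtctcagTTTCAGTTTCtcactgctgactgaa
Ifit3: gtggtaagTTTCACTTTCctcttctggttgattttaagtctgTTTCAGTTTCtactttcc
Ifit3b: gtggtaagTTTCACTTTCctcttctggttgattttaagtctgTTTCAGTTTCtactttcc
Rsad2: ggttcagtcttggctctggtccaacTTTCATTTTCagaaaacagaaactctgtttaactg
Isg15: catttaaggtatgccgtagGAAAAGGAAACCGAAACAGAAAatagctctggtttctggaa
Cxcl10: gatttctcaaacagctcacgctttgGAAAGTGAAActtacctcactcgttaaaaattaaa
These windows are chr19:34640769-34640828 (Ifit1, plus strand), chr19:34583365-34583424 (Ifit3, plus), chr19:34607761-34607820 (Ifit3b, plus), chr12:26456538-26456597 (Rsad2, minus), chr4:156200856-156200915 (Isg15, minus) and chr5:92349068-92349127 (Cxcl10, minus). Ifit1 had 2 motifs, between 104 and 76 bases before its start, and the windows of Ifit3 and Ifit3b were the same 60 bases with 2 motifs each. Ifit3 and Ifit3b are near-identical copies, so the division of reads between them is uncertain. Isg15 had 3 overlapping motifs between 78 and 57 bases before its start, and Rsad2 and Cxcl10 had 1 each. A motif match is a description of the sequence and not a measured binding site.

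Interferon-responding cells were mostly cells of hashtag 1. There, 2711 of 3144 cells met the rule, a share of 86.2% (95% interval 85.0 to 87.4). All intervals given are exact and cover counting error only, since UMIs of 1 library are not replicates. The shares were 11.6% (10.0 to 13.3) in hashtag 3 with 174 of 1500 cells, 4.32% (3.35 to 5.46) in hashtag 4 with 66 of 1529 cells, and 2.82% (1.55 to 4.68) in hashtag 2 with 14 of 497 cells. Hashtag 1 cells were the shallowest of these, with a median of 6816 UMIs against 9454, 9792 and 10663 in hashtags 3, 4 and 2, so the shares ranked in the reverse order of median depth. With every cell thinned to 5000 UMIs, the shares were 79.0% in hashtag 1, 5.13% in hashtag 3, 2.05% in hashtag 4 and 1.26% in hashtag 2, after 747, 136, 114 and 21 shallower cells had been left out.

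A further 215 interferon-responding cells had no hashtag above its cutoff, 4.05% (3.54 to 4.62) of 5307 cells. Another 528 had more than 1 hashtag, 49.4% (46.4 to 52.5) of 1068 barcodes. Among those 528, hashtag 1 was above its cutoff in 94.5%, against 31.5% of the 340 barcodes of more than 1 hashtag with none of the 4 genes, and the Scrublet caller marked 69.3% of the 528 as doublets, against 41.5% of the 340. Doublets were kept except where stated. Hashtag 1 alone held 73.1% of all interferon-responding cells and 76.5% of all UMIs of the 4 genes, and the comparison within hashtag 1 is therefore the main one below.

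**Figure D1:**
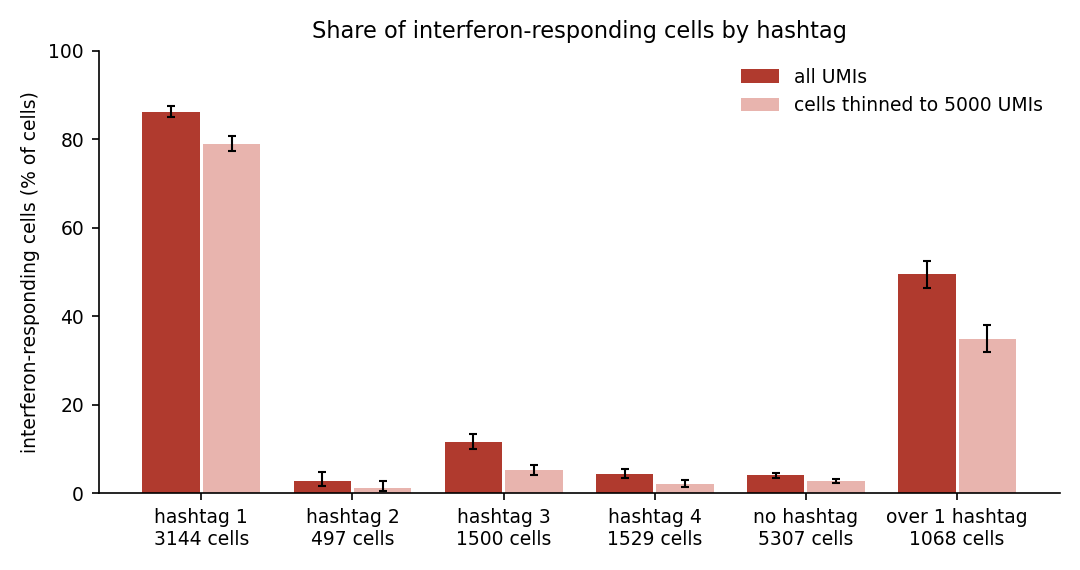
Share of interferon-responding cells (% of cells, bars start at 0) by hashtag, with all UMIs (dark) and with each cell thinned to 5000 UMIs (light). Error bars are exact 95% intervals of counting error. Hashtag 1 stands at 86.2% and 79.0%, barcodes with more than 1 hashtag at 49.4% and 34.9%, and all others at 11.6% or below.

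Free RNA in the droplets also carried these transcripts. In barcodes with 1 to 100 UMIs, taken as near-empty droplets, the 4 genes made up 414 counts per 1000000 UMIs (CPM), while in the cells they made up 1580 CPM in hashtag 1, 103 in hashtag 3, 46.3 in hashtag 4 and 29.9 in hashtag 2. If 5% of the UMIs of a cell of median depth were free RNA, it would hold 0.141 UMIs of the 4 genes in hashtag 1 and 0.196 in hashtag 3, where the measured means were 12.1 and 1.03 UMIs per cell. For hashtags 4 and 2 the same reckoning gave 0.203 and 0.221 UMIs, against measured means of 0.488 and 0.336. The Ifit1 to Ifit3 ratio of UMIs was 1.57 in near-empty droplets, and in interferon-responding cells it was 1.63 in hashtag 1, 1.11 in hashtag 2, 3.82 in hashtag 3 and 2.44 in hashtag 4. The part of free RNA in the shares of the hashtags was not tested.

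Among the interferon-responding cells of hashtag 1, the 4 genes together had a median of 11 UMIs per cell, with 10% of cells at or below 4, 10% at or above 27 and a highest count of 92. Ifit1 stood at 891 CPM (878 to 903), Ifit3 at 546 (536 to 556), Rsad2 at 215 (209 to 221) and Ifit3b at 130 (125 to 135). Ifit1 was found in 97.2% of these cells, Ifit3 in 93.3%, Rsad2 in 58.9% and Ifit3b in 56.1%, and 34.1% of the cells held all 4 genes while 2.91% held 1 of them. In hashtag 3 the median was 4 UMIs, and Rsad2 made up 3.20% of the UMIs of the 4 genes against 12.1% in hashtag 1. Of the 174 cells, 1.15% held all 4 genes and 38.5% held 1. In hashtags 2 and 4, with medians of 4 and 5 UMIs, 7.14% and 9.09% held all 4. A cell with fewer UMIs has room for fewer of the genes, and the hashtags were not compared at equal UMIs.

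The cells were checked against markers of the cell types a culture could hold. Of the 9 VSMC markers, 7 were at 10 CPM or more in interferon-responding cells of hashtag 1, led by Tpm2 at 409 CPM, Tagln at 392 and Acta2 at 364, whereas Myh11, the smooth muscle myosin heavy chain of mature contractile cells, was at 2.51 CPM and Des at 0.993. Of the 8 macrophage markers, none reached 10 CPM, 6 were under 1 CPM and C1qa and C1qb had no UMI, and Csf1r was the most abundant at 8.89 CPM. The list summed to 11.5 CPM, against 8.08 CPM in cells of hashtag 1 with none of the 4 genes. All 4 markers of T and NK cells were at 0. The 5 endothelial markers summed to 6.95 CPM with Kdr highest at 5.06, and the 4 epithelial markers to 2.46 CPM. Of the 5 plasmacytoid dendritic markers only Bst2, itself an interferon-stimulated gene, was above 1 CPM (1875 CPM), and Siglech and Cd209d were at 0. Of the 4 fibroblast markers, Pdgfra was at 65.7 CPM and Dpt at 10.6, against 42.2 and 19.8 in cells with none of the 4 genes. The other fibroblast markers were low, with Lum at 1.47 CPM and Pi16 at 0.425, and had no UMI in cells with none.

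To see whether other interferon genes moved with the 4 genes, 107 genes of 3 lists (antiviral effectors, the ISG15 and ubiquitin-like system, and interferon-inducible GTPases) were summed without the 4 genes of the rule. In hashtag 1 this sum was 19122 CPM in interferon-responding cells, 13175 in cells with 1 or 2 UMIs and 7689 in cells with none. In cells with none, the sum was thus higher in hashtag 1 than in hashtags 3 (5169 CPM), 4 (3472) and 2 (3097). Near-empty droplets held 7388 CPM. Single cells with none varied widely in hashtag 1. There the 107 genes took 0.232% of a cell's UMIs at the 10th percentile, 0.665% at the median and 2.13% at the 90th. For cells with none in hashtag 3, these shares were 0.313%, 0.513% and 0.80%. The lowest cells with none of hashtag 1 therefore lay below those of hashtag 3. In interferon-responding cells of hashtags 2, 3 and 4 the sum was 7481, 6913 and 6759 CPM. Those of hashtags 3 and 4 lay below hashtag 1 cells with none (7527 to 7854). The value of hashtag 2, on 14 cells, had an interval of 7075 to 7904 that overlapped theirs. The 215 interferon-responding cells without a hashtag, at 11696 CPM, lay between hashtag 1 cells with none and the interferon-responding cells of hashtag 1.

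**Figure D2:**
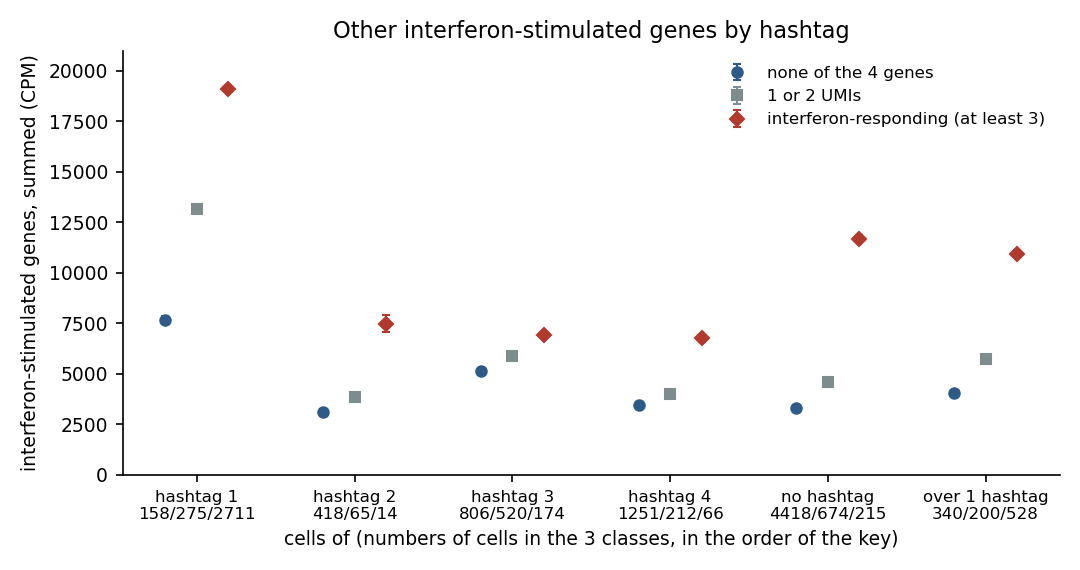
Summed level (CPM) of 107 interferon-stimulated genes, without the 4 genes of the rule, in cells with none of the 4 genes (circles), 1 or 2 UMIs (squares) and interferon-responding cells (diamonds), by hashtag. Error bars are exact Poisson 95% intervals, in most cases smaller than the markers. The 3 classes rank in the same order in every column, and all 3 are highest in hashtag 1, from 7689 to 19122 CPM.

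Within hashtag 1 the sum followed the number of UMIs of the 4 genes in steps: 7689 CPM (7527 to 7854) at 0 UMIs, 12321 at 1, 14006 at 2, 15841 at 3 to 5, 17426 at 6 to 10, 19994 at 11 to 20 and 22309 (22175 to 22443) at more than 20. Cells just outside the rule, with 2 UMIs, stood at 14006 CPM (13767 to 14247) and those just inside it, with 3, at 14916 (14685 to 15150), so the threshold of 3 divided a graded range. Isg15, Iigp1, Cxcl10 and Irf7 rose over the same steps, while B2m did not at each step. Isg15 was at 216 CPM at 0 UMIs, 578 at 2, 660 at exactly 3 and 1181 above 20, and the GTPase Iigp1 at 34.1, 126, 175 and 509 CPM in the same classes. B2m was at 2098 CPM at 3 to 5 UMIs and 2010 at 6 to 10. Between cells with 2 UMIs and those with exactly 3, the intervals of Cxcl10 and Irf7 overlapped. Cxcl10 was at 115 CPM (94.6 to 139) and 98.7 (80.7 to 119.5), and Irf7 at 251 (220 to 285) and 234 (206 to 265). The last class was also the deepest, with a median of 8096 UMIs per cell against 6148 at 0 UMIs. After thinning to 5000 UMIs the sum ran from 7957 CPM at 0 to 25622 CPM above 20 UMIs. Genes outside the interferon lists also changed along the classes. With all UMIs, Xist was at 347 CPM at 0 UMIs, 201 at 1, 237 at 2, 126 at 3 to 5 and 44.8 above 20. Spp1 was at 7734, 5384, 4175, 3432 and 2567 CPM in the same classes. The part of a changing mix of cells in the steps was not tested.

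**Figure D3:**
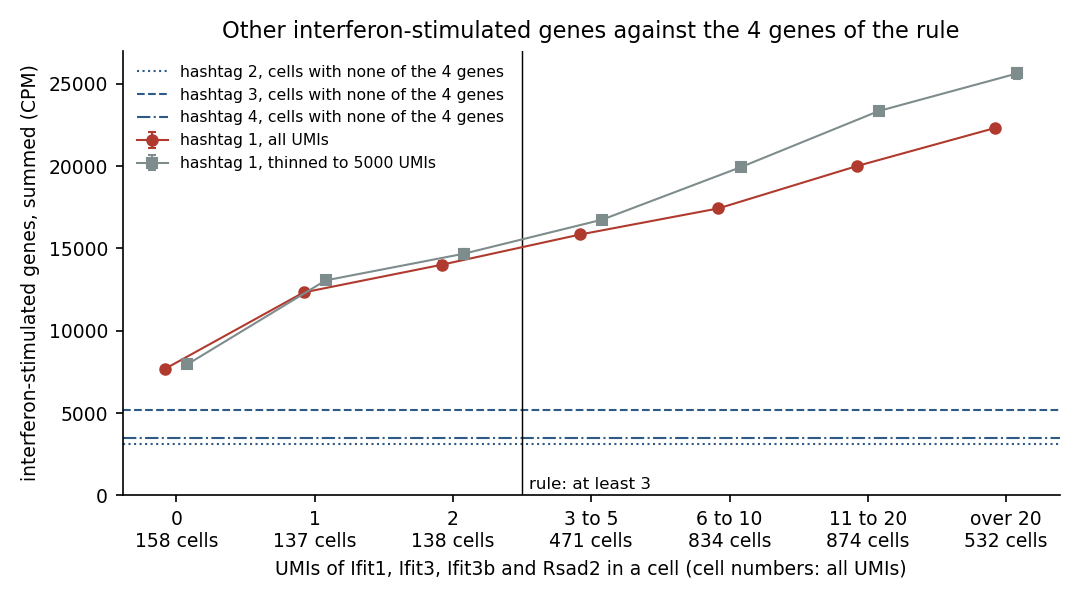
Summed level (CPM) of the 107 interferon-stimulated genes in cells of hashtag 1 by the number of UMIs of Ifit1, Ifit3, Ifit3b and Rsad2 in a cell, with all UMIs (circles) and with cells thinned to 5000 UMIs (squares), with exact Poisson 95% intervals. Horizontal lines give cells with none of the 4 genes in hashtags 2, 3 and 4 (3097 to 5169 CPM), below every class of hashtag 1.

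Cells of hashtag 1 with none of the 4 genes were few (158) and differed from the interferon-responding cells in more than interferon genes. Their median hashtag 1 count was 156 UMIs against 403, their Xist level was 347 CPM against 91.2, and their level of Spp1, which encodes osteopontin, was 7734 CPM against 3072. Il1rl1, the IL-33 receptor, was at 229 CPM against 90.7. In hashtags 2 and 4, cells with none of the 4 genes had Xist at 639 and 783 CPM and Spp1 at 8480 and 9417 CPM, so the Xist level of the 158 cells lay between those of the interferon-responding cells and of these hashtags, whereas in hashtag 3 cells with none had 133 CPM. The share of interferon-responding cells in hashtag 1 was 74.5% (70.7 to 78.1) at up to 100 hashtag 1 UMIs, 85.2% (83.0 to 87.3) up to 400 and 91.3% (89.8 to 92.7) above 400. The part of wrongly assigned cells in the ratios below was not tested. The values of each list are also given for the cells of hashtag 1 that held Y-linked but no Xist UMIs (1547 interferon-responding cells and 53 with none). This subset was chosen after the data were seen, and it does not remove all wrongly assigned cells. Such transcripts marked 54.1% of hashtag 1 cells but also 55.5% of hashtag 3, 19.5% of hashtag 2 and 13.8% of hashtag 4.

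Across the genes, 8374 other than the 4 of the rule reached 10 CPM over the cells of hashtag 1. Most of these cells were interferon-responding, so a gene could pass this filter by its level in them alone, and a gene high in the 158 cells with none could fail it. The counts of each list below share this limit. Of the 8374 genes, 337 were at least 2-fold higher in interferon-responding cells than in cells with none (4.02% of genes) and 147 at least 2-fold lower (1.76%). With the 95% counting interval also required to lie past 1, the counts were 318 (3.8%) and 147 (1.76%). In the subset of Y-linked cells, 506 of 8359 genes were higher (6.05%) and 231 lower (2.76%), and with the interval required 230 (2.75%) and 197 (2.36%). Called below means this 2-fold difference, and since the cells were chosen on the same library these counts are descriptive. The median gene had a ratio of 0.980. The 91 tested genes of the 3 interferon lists had a median ratio of 3.05, with 73 called higher and none lower. The summed level of all 107 genes of these lists was 2.49 times (2.43 to 2.54) that of cells with none. Among the Y-linked cells, the summed ratio was 2.09 (2.02 to 2.16), with 59 of 92 genes higher and 1 lower.

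**Figure D4:**
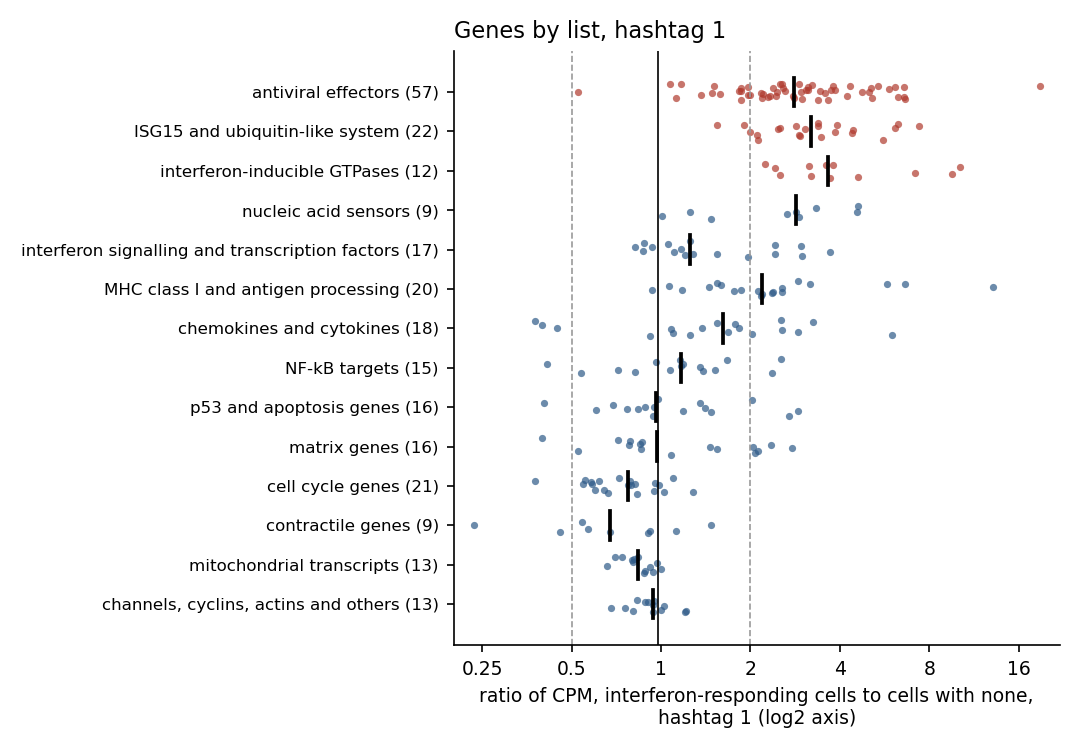
Ratio of the CPM level in interferon-responding cells to that in cells with none of the 4 genes, hashtag 1 (log2 axis), for each tested gene of each list (number of genes in brackets), with the 3 interferon lists that were summed in red. Thick bars are medians, dashed lines a ratio of 0.5 and 2, and the thin line the median of all tested genes (0.980). Medians of the 3 interferon lists lie between 2.80 and 3.65, and that of the contractile genes at 0.670.

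Antiviral effectors were higher in most tested members. Of 66 genes in the table, 57 passed the filter on low levels, and 42 of these were called higher and none lower (median ratio 2.80). Members of the oligoadenylate synthetase family were among them. Oasl2 was at 141 CPM against 33.2, a ratio of 4.23 (3.06 to 6.02), and Oasl1 at 70.9 against 10.8 CPM, a ratio of 6.58 (3.76 to 12.8). Oas3, which makes the 2′-5′ oligoadenylates that activate RNase L, had a ratio of 18.9 that rested on 1 UMI in cells with none (interval 3.36 to 747). The DNA-binding proteins of the Ifi200 family behaved alike, with Ifi204 at 248 against 48.5 CPM (ratio 5.12, 3.92 to 6.83) and Mndal at 228 against 61.1 (3.73). These genes are close paralogs, as are Phf11b and Phf11d, so their single values are uncertain.

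Several genes of the list were abundant. Ifitm3, which blocks virus entry at endosomes, was the most abundant at 4504 against 2296 CPM, a ratio of 1.96 (1.89 to 2.04). Ly6a, the surface antigen Sca-1, was at 2066 against 672 CPM (3.08, 2.86 to 3.31), and Bst2, or tetherin, which holds budding virions at the membrane, at 1875 against 745 CPM (2.52, 2.35 to 2.70). Ifi44 had 336 against 67.3 CPM (5.00, 3.98 to 6.36). Ifi27 went the other way, at 109 against 208 CPM and a ratio of 0.525 (0.459 to 0.604). In the Y-linked cells 30 of 56 antiviral effectors were called higher and 1, Ifi27 with a ratio of 0.496, lower. Bst2 lost its call there at 1.83 (1.66 to 2.03), and Ifi44 had 3.14. Mx1 and Mx2 were not analysed here.

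The ISG15 and ubiquitin-like system was called higher in 19 of 22 tested genes, with none lower and a median ratio of 3.21. Some of the 19, such as Uba7, passed the filter only by their level in the interferon-responding cells, so this count is no measure of the system as a whole. Isg15, the modifier itself, was at 958 against 216 CPM (4.43, 3.90 to 5.05). Its activating enzyme Uba7 was at 19.7 against 4.49 CPM (4.38), the ligase Herc6 at 66.0 against 10.8 (6.12) and the protease Usp18, which removes ISG15 and damps receptor signalling, at 167 against 49.4 (3.37). The ADP-ribosyltransferase Parp14 had the highest ratio of the list, 7.40 (4.40 to 13.6), at 93.0 against 12.6 CPM. Rnf213, a large E3 ligase that is also a vascular disease gene, was at 345 against 102 CPM (3.37, 2.80 to 4.09). For the Y-linked subset, 17 of 23 genes were called higher.

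Interferon-inducible GTPases, which attack the vacuoles of intracellular parasites and bacteria, numbered 18 in the table, of which 6 were under the filter and the other 12 were called higher. Some of the 12, such as Ifi47, passed the filter only by their level in the interferon-responding cells, so this count is no measure of the family as a whole. Iigp1 was at 345 against 34.1 CPM, a ratio of 10.1 (7.36 to 14.3), and Ifi47 at 42.8 against 4.49 CPM, a ratio of 9.54 (4.07 to 29.4). The guanylate-binding proteins Gbp2 (152 against 62.8 CPM), Gbp3 (112 against 35.0) and Gbp7 (67.8 against 18.8) had ratios of 2.43, 3.20 and 3.60. In the Y-linked cells 12 of 13 GTPases were called higher, and Iigp1 had a ratio of 9.33.

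Sensors of foreign nucleic acid differed within their list. Of 9 tested, 6 were called higher: Ifih1 (MDA5) at 94.9 against 20.6 CPM (4.60, 3.06 to 7.27), Tlr3 at 32.7 against 7.18 (4.55), Ddx60 at 74.7 against 22.4 (3.33), Ddx58 (RIG-I) at 133 against 45.8 (2.91), Dhx58 at 20.5 against 7.18 (2.85) and Zbp1 at 226 against 85.3 (2.65). Tmem173, which encodes STING, and Tbk1, its kinase, were not called, with ratios of 1.48 and 1.25. Among Y-linked cells 5 of the 9 sensors were called higher, and Zbp1 fell short at 1.78.

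In the signalling chain itself, 5 of 17 tested genes were called higher and none lower. Among them were Stat2 at 90.5 against 30.5 CPM (2.97), Irf7, the amplifier of type I interferon transcription, at 278 against 93.4 (2.98, 2.45 to 3.65), Irf1 at 17.4 against 7.18 (2.42) and the feedback inhibitor Socs1 at 13.0 against 5.39 (2.41). The receptor genes were not called: Ifnar1 had a ratio of 0.931 (0.652 to 1.38), Ifnar2 of 1.55 (1.29 to 1.86), Ifngr1 of 1.06 and Ifngr2 of 0.869. Irf9 was at 44.1 against 22.4 CPM, a ratio of 1.97 (1.32 to 3.06). For the Y-linked cells the count was also 5 of 17, with Irf9 called at 2.04 and Irf1 not called at 1.76. Transcripts of the ligands were almost absent. All 21 listed interferon genes had 35 UMIs in 34 of the 13045 cells, of which 28 were Ifnz, and 9 of these cells were interferon-responding cells of hashtag 1. Ifnb1 had 4 UMIs in 3 cells, all interferon-responding. At this depth, a count of 0, as for Ifna1 and Ifna2, does not exclude a low level of the transcript.

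Antigen presentation genes were called higher in 12 of 20 tested genes and lower in none (median ratio 2.18). H2-K1, a classical class I heavy chain, was at 892 against 422 CPM (2.11, 1.93 to 2.32). The immunoproteasome subunit Psmb8 was at 239 against 82.6 CPM (2.90, 2.36 to 3.60) and the peptide transporter Tap1 at 36.8 against 14.4 (2.56, 1.57 to 4.51). The light chain gene B2m was not called, at 2163 against 1406 CPM (1.54, 1.46 to 1.62). Cd274, which encodes PD-L1, had a ratio of 13.2 resting on 1 UMI in cells with none (2.34 to 522). Restricted to Y-linked cells, 7 of 20 were called, and H2-K1 (1.48) and Psmb8 (1.83) lost their calls. Reads of H2 genes may be divided between near-identical copies.

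Chemokines and cytokines split in direction, with 6 of 18 tested genes called higher and 3 lower. Cxcl10, which attracts T cells and NK cells through CXCR3, was at 247 against 41.3 CPM (5.98, 4.47 to 8.17), and Cxcl9, which shares that receptor, at 36.5 against 14.4 (2.54). Ccl5 was at 754 against 298 CPM (2.53, 2.27 to 2.83). The neutrophil attractants Cxcl5 (1295 against 399 CPM), Cxcl2 (59.7 against 20.6) and Cxcl1 (396 against 197) had ratios of 3.25, 2.89 and 2.02. Lower were Lif at 18.5 against 49.4 CPM (0.375), Il1rl1 at 90.7 against 229 (0.396) and the granulocyte factor Csf3 at 10.8 against 24.2 (0.445). In the Y-linked cells 6 of 17 were called higher and none lower, with Cxcl10 at a ratio of 11.8 and Il1rl1 at 0.522, while Ccl5 (1.46) and Cxcl9 (1.33) lost their calls. Ccl2, the most abundant chemokine, was at 3689 against 2937 CPM, a ratio of 1.26.

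Targets of NF-kB, a pathway that also drives chemokines, had a median ratio of 1.17, with Tnip1 and Irak3 called higher and Ptgs2, or cyclooxygenase 2, lower at 196 against 475 CPM (0.412). For Y-linked cells Tnip1 was called higher, with no UMI in the comparison cells, and Ptgs2 (0.492) and the adhesion molecule Icam1 (0.354) lower, while Irak3 was not called (1.47). Among genes of p53 and cell death, the necroptosis effector Mlkl (2.70), the pyroptosis effector Gsdmd (2.89) and Casp12 (2.02) were called higher and the BH3-only gene Pmaip1 lower (0.404). The other 12 of 16 were not called, among them Cdkn1a with a ratio of 0.837 (0.783 to 0.895). The Y-linked cells had 4 of these genes called higher, with Ripk3 (2.48) beside Mlkl, Gsdmd and Casp12, and 2 lower, Pmaip1 (0.244) and Gdf15 (0.418). Matrix genes were called higher in 5 of 16, namely Col3a1 (2.76), Lox (2.35), Col1a2 (2.12), Fbn1 (2.07) and Col1a1 (2.03), and lower in 1, Spp1 (0.397, 0.388 to 0.406). Among the Y-linked cells, Col3a1 (2.28) and Spp1 (0.486) were the only 2 matrix genes called.

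Contractile genes depended on which cells of hashtag 1 were compared. Of 9 tested genes, Cnn1 was called lower at 14.9 against 63.7 CPM (0.234, 0.181 to 0.308) and Tagln at 392 against 855 CPM (0.458, 0.428 to 0.490), and the 14 genes together had a summed ratio of 0.758 (0.738 to 0.778). Acta2, smooth muscle actin, was at 364 against 643 CPM, a ratio of 0.567 (0.525 to 0.613). In the Y-linked cells none of the 9 genes was called, the summed ratio was 0.896 (0.853 to 0.940) and the ratio of Acta2 turned to 1.44. Over all cells of the pool the ratio of Acta2 was 0.996. Myh11, under the filter, was at 2.51 against 44.0 CPM in hashtag 1.

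Cell cycle genes lay below the median gene, with a median ratio of 0.772 and 1 of 21 called, the S-phase cyclin Ccne2 (0.376, 0.284 to 0.507). The mitotic genes Top2a (0.772) and Cdk1 (1.02) were not called, and in the Y-linked cells 5 of 21 were called lower. The 13 mitochondrial transcripts had a summed ratio of 0.857 (0.842 to 0.872) with none called, and in Y-linked cells 0.916 with 1 called lower. A list of 14 mechanosensitive and calcium channels, cyclins, actins and other genes drawn from the study had 13 tested genes, and none was called in either direction, also in the Y-linked cells. Of other genes that the study names, some stood in the lists above and were called, among them Tagln, Spp1, Ptgs2, Il1rl1, Col1a1 and Col3a1. Others there, such as Acta2 and Cdkn1a, were not called. In the Y-linked cells Tagln, Il1rl1 and Col1a1 lost their calls. Piezo1 was at 71.6 against 70.0 CPM, a ratio of 1.02 (0.814 to 1.30), Piezo2 at 29.8 against 31.4 (0.949) and Cd44 at 302 against 363 (0.832).

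Among genes of no list, the 15 with the highest ratio included further interferon genes. Gm4841 and F830016B08Rik, predicted interferon-inducible GTPases, were at 23.1 against 0.898 CPM (1 UMI in cells with none, ratio 25.7, 4.59 to 1017) and at 71.7 against 7.18 CPM (9.98, 5.05 to 23.2). Ifi206, of the Ifi200 family, was at 62.5 against 10.8 CPM (5.80, 3.31 to 11.3), and Ifi208 at 11.7 against 1.79 (6.50, 1.78 to 54.0). Whether the others of the 15 are interferon genes was not checked. Apod, a lipid-binding lipocalin, was at 21.2 against 1.79 CPM (11.8, 3.25 to 97.7), the secreted Olfml3 at 27.0 against 3.59 (7.53) and the matricellular gene Ccn5 at 77.7 against 13.5 (5.77, 3.49 to 10.3). Tent5a (5.24), Ndufa4l2 (5.28), the vitamin D receptor Vdr (5.47) and the water channel Aqp1 (5.30, 1.796 to 25.8) followed. Asb5 (6.90, 1.89 to 57.3), Rgma (6.11, 1.67 to 50.7), AW011738 (5.95, 2.31 to 21.9) and Malt1 (5.47, 1.497 to 45.5), each with 2 to 4 UMIs in cells with none, completed the 15. The Y-linked cells gave lower ratios for many of these: Apod had 4.12 (1.13 to 34.2), Olfml3 5.35 (1.47 to 44.3), Ccn5 3.67 (1.85 to 8.52), Vdr 3.69 (1.01 to 30.6), Tent5a 2.31 (1.39 to 4.14) and Ndufa4l2 4.16 (1.77 to 12.8). Aqp1 lost its call at 1.88 (0.633 to 9.20), and the intervals of Ifi208 (4.62, 0.816 to 184), Rgma (4.15, 0.733 to 165) and Malt1 (3.50, 0.616 to 140), each on 1 UMI, reached below 1. Ifi206 had 8.38 (2.86 to 40.7) and F830016B08Rik 7.39 (2.88 to 27.2), while Gm4841, Asb5 and AW011738 had no UMI in the 53 comparison cells. Over all cells of the pool, Rgma had a ratio of 0.995 (0.871 to 1.13), Asb5 of 1.37 and Malt1 of 1.40, whereas AW011738 had 20.8.

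The 10 lowest ratios of no list belonged to Areg, Sorcs1, Peg10, Lingo2, Mmp10, Hgf, P2rx7, Slc14a1, Il11 and Clu. Areg, an EGF receptor ligand, was at 9.55 against 62.8 CPM (0.152, 0.115 to 0.202), Hgf, the hepatocyte growth factor, at 13.4 against 52.1 (0.258) and the metalloproteinase Mmp10 at 65.1 against 258 (0.252, 0.222 to 0.287). Clu, a secreted chaperone, was at 33.8 against 112 CPM (0.301). Within the Y-linked subset, Clu had a ratio of 0.844 on 9 UMIs in cells with none, Hgf 0.687 on 6 and Mmp10 0.412 on 43. Clu, Hgf and P2rx7 (0.625, 0.279 to 1.74) thus lost their calls there, while Lingo2 had 0.279 (0.217 to 0.364). Areg (0.403, 0.188 to 1.03), Sorcs1 (0.674, 0.254 to 2.53), Peg10 and Slc14a1 were under the filter in this subset and were not called. Over all cells of the pool, P2rx7 was also under the filter, with a ratio of 1.155 (0.994 to 1.34).

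The promoter motif shown above was counted in the called genes. Of the 258 genes called higher with a promoter in the RefSeq table, leaving out the 4 genes of the rule, 47 held it (18.2%), against 231 of 6710 tested genes (3.44%) and 5 of the genes called lower (4.81%). In genes called higher that belonged to no list, it was found in 14 of 171 (8.19%), and in the 3 interferon lists in 38 of 84 genes (45.2%) and in 26 of the 56 called higher (46.4%). Genes of the lists that held it were, among others, Oas3, Bst2, Gbp2, Irgm1 and Trim30a. Ifi206, Ifi208 and Asb5 also held it. These shares were not tested, and the absence of the letters from the window of another gene says nothing of its regulation.

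Over all cells of the pool, the summed ratio of the 3 interferon lists was 4.34 (4.31 to 4.36), and 277 of 8458 genes were called higher (3.28%) and 148 lower (1.75%). Isg15 had a ratio of 17.2 and Cxcl10 of 57.4. These ratios also hold the differences between hashtags, since 2711 of the 3708 interferon-responding cells but 158 of the 7391 cells with none carried hashtag 1. Within hashtag 3, where 174 cells met the rule, 20 of 8335 genes were called higher (0.24%) and 94 lower (1.13%), the interferon lists had a summed ratio of 1.34 (1.31 to 1.36), and 12 of 62 of their tested genes were called higher. In hashtag 4, 71 of 8426 genes were called higher (0.843%) and 230 lower (2.73%), with 23 of 49 interferon genes higher and a summed ratio of 1.95. In cells without a hashtag, 176 of 8421 genes were called higher (2.09%) and 126 lower (1.5%), 37 of 50 interferon genes were higher, and the summed ratio was 3.55 (3.49 to 3.60). Hashtag 2, with 14 such cells, was not compared across genes.

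Mitochondrial transcripts were lower in the interferon-responding cells of hashtags 3 and 4. They made up 0.383% of UMIs in interferon-responding cells of hashtag 3 against 0.694% in cells with none, and 1.10% against 1.75% in hashtag 4. Interferon-responding cells were also deeper there, with a median of 10603 against 8792 UMIs in hashtag 3 and 12724 against 9469 in hashtag 4, and 47.0% of those of hashtag 4 were called doublets against 13.8%. In cells without a hashtag the share was 1.18% against 1.745%, although the interferon-responding cells were shallower, with a median of 6456 against 6914 UMIs. In hashtag 2 it was 1.24% in the 14 interferon-responding cells against 1.68%. The part of doublets and depth in these differences was not tested.

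Within hashtag 1 the interferon-responding cells varied among themselves. The 3 interferon lists took 1.16% of a cell's UMIs at the 10th percentile, 2.07% at the median and 2.94% at the 90th. Some genes were present in nearly every cell: Ifitm3 was found in all 2711 cells, Bst2 in 99.9%, Isg15 in 98.0%, Ifi44 in 86.7% and Irf7 in 83.5%. In cells of hashtag 1 with none of the 4 genes, with a median of 6148 UMIs, the shares were 99.4% for Ifitm3, 79.1% for Bst2, 54.4% for Isg15, 31.0% for Ifi44 and 37.3% for Irf7. In cells of hashtags 2 to 4 with none of the 4 genes, which had a median of 9404 UMIs against 6924, the shares were 27.7% for Isg15, 13.7% for Ifi44 and 11.1% for Irf7, and those for Ifitm3 and Bst2 were 98.99% and 75.6%.

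Other genes were concentrated in few cells. The 5% of cells highest for a gene (136 cells) held 44.2% of all Cxcl10 UMIs, and Cxcl10 was found in 43.3% of cells with up to 53 UMIs in a cell. The same share was 33.7% for Rsad2, 33.8% for Ccl5 and 39.0% for Oasl1, but 13.3% for Isg15, 17.7% for Ifit1 and 18.1% for Iigp1. Among the 107 listed interferon, antigen presentation and chemokine genes at 40 CPM or more, Cxcl2 and Ccl20 were the most concentrated, at 84.4% and 89.4%. They were found in 11.8% and 8.85% of cells. The share was not computed for genes outside these lists. For genes of low level this share is bounded from below by the few cells that hold a UMI.

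**Figure D5:**
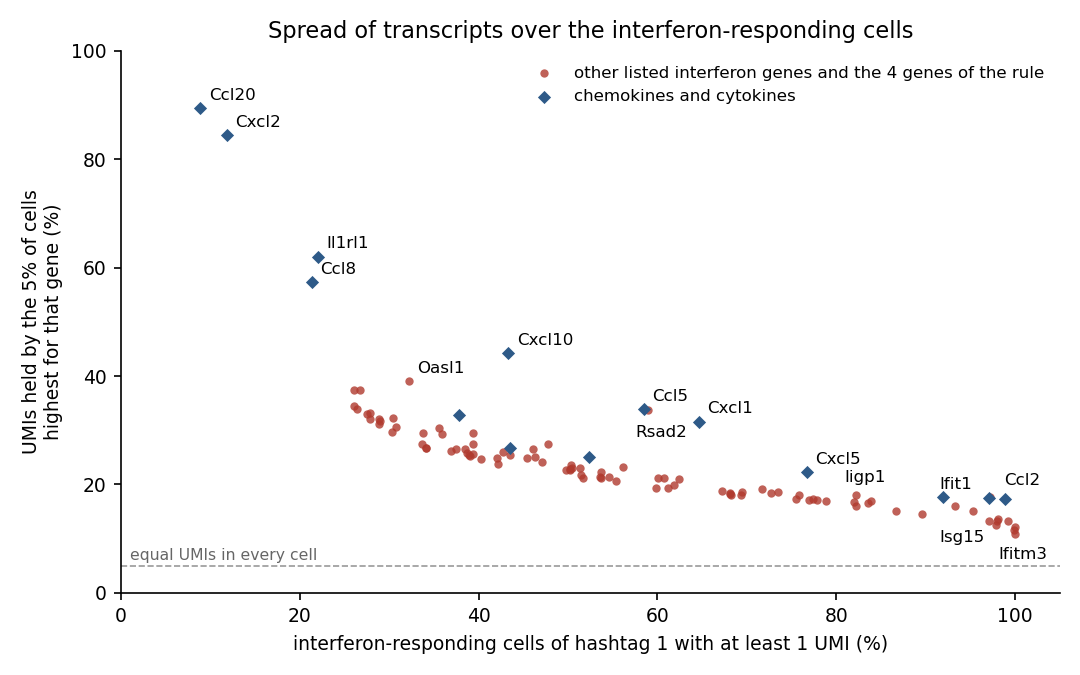
For 107 listed interferon, antigen presentation and chemokine genes (chemokines and cytokines as blue diamonds) at 40 CPM or more in interferon-responding cells of hashtag 1, the share of cells with at least 1 UMI (x axis, %) and the share of UMIs held by the 5% of cells highest for that gene (y axis, %). The dashed line marks equal UMIs in every cell. Ifitm3 lies lowest of the named genes at 10.9% of UMIs and Ccl20 highest at 89.4%, and Cxcl10 (44.2%), Ccl5 (33.8%) and Rsad2 (33.7%) lie above other genes found in similar shares of cells.

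The cells with much Cxcl10 were therefore set beside those with none, a division made after the data were seen. Of the 2711 cells, 1537 had no Cxcl10 UMI, 1040 had 1 to 9 and 134 had 10 or more, and these 134 cells held 43.8% of the Cxcl10 UMIs. The 3 classes were alike in depth, with medians of 6773, 7182 and 7244 UMIs, and 23.1%, 17.3% and 11.2% of them were called doublets. The 3 interferon lists summed to 17757, 20585 and 23044 CPM. Cells with 10 or more Cxcl10 UMIs had 84 of 8349 genes at least 2-fold higher than cells with none (1.01%) and 180 lower (2.16%), and the chemokine and cytokine list, without Cxcl10, had 9 of 17 higher with a median ratio of 2.12, against 0.955 for all genes. Of the antiviral effectors 5 of 57 were 2-fold higher (median ratio 1.42), of the GTPases 2 of 13 (1.62), of the ISG15 system 0 of 22 (1.28) and of antigen presentation 0 of 20 (1.42).

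The 5 highest ratios of single genes belonged to genes of no list, namely Olfr655 (6.18, 4.57 to 8.31), Adam2 (5.78), C77080 (5.62), Carf (5.62) and Tmem267 (5.21). Rsad2 came next and was at 701 CPM in cells with 10 or more Cxcl10 UMIs against 135 in those with none, a ratio of 5.19 (4.75 to 5.66), and Oasl1 at 232 against 45.7, a ratio of 5.09 (4.36 to 5.93). Ifit2, a gene of the same family as Ifit1, was at 110 against 26.1 CPM (4.21, 3.37 to 5.23), while Ifit1 had a ratio of 2.06 and Isg15 of 1.43. Among chemokines, Cxcl2 had a ratio of 4.62 (3.92 to 5.45), Cxcl9 of 3.41, Cxcl1 of 2.23 and Ccl5 of 2.18. Nos2, the inducible nitric oxide synthase, was at 57.9 against 16.2 CPM (3.57, 2.63 to 4.79). Ly6a had a ratio of 1.31 and Bst2 of 1.19. Of the 4 Ifnb1 UMIs in the pool, 2 were in 1 of the 134 cells.

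Transcripts that mark the sex of the animal varied within each hashtag. In hashtag 1, 1700 of 3144 cells had Y-linked transcripts (Ddx3y, Eif2s3y, Kdm5d or Uty) and no Xist, and 91.0% (89.5 to 92.3) of these were interferon-responding. Of the 154 cells with Xist only, 51.9% (43.8 to 60.1) were. These 154 cells had a median hashtag 1 count of 225 UMIs against 399, and 7400 against 2835 CPM of Spp1. Cells with both (250) and with neither (1040) stood at 82.4% and 84.4%. In the other hashtags the share was also higher in cells with Y-linked transcripts only than in those with Xist only, at 6.19% (2.30 to 13.0) against 1.92% (0.707 to 4.12) in hashtag 2, 13.9% (11.6 to 16.5) against 7.45% (3.05 to 14.7) in hashtag 3 and 4.27% (1.97 to 7.94) against 3.04% (2.07 to 4.28) in hashtag 4, with intervals that overlapped in each. Cells of hashtag 4 with both stood at 14.1% (8.82 to 20.9). After thinning, the shares in hashtag 1 were 83.7% for Y-linked only and 39.2% for Xist only.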

How the data were processed

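The pool of 4 cultures was measured as 1 gene expression library (10x Chromium 3′ v3.1) and 1 TotalSeq-A hashtag library. The deposited values are raw UMI counts that the authors made with Cell Ranger 4 (per the file headers) for 32285 genes and 4 hashtags over 2472397 barcodes. Its genome build was not given in the sources used here. The study names Seurat for its own analysis, which was not repeated.

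The minimum of 2218 UMIs is 0.1 times the 99th percentile of total UMIs over the 10000 deepest barcodes. No mitochondrial filter was applied. A cell belonged to a hashtag when only that hashtag was above its cutoff of 36, 52, 61 or 41 UMIs for hashtags 1 to 4. Scrublet (scanpy 1.11.5, expected rate 0.1) called 2606 cells doublets (20.0%), far above that rate. Level is a gene's summed UMIs per 1000000 UMIs of a class (CPM). Ratios of summed counts have exact binomial intervals, levels exact Poisson intervals and shares Clopper-Pearson intervals, all at 95%. Cells are not replicates, so no p-value was computed.

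The interferon-responding cells and the gene lists were chosen with earlier results of these data known. Genes were named when they belonged to the rule or a list, or were among the 15 highest and 10 lowest ratios of no list in hashtag 1. Genes of the Cxcl10 division were named after their values were seen. Python 3.11.15, scipy 1.17.1 and numpy 2.4.6 were used. Some items are not reported here.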

Additional observations from a re-analysis of the deposited data

How the results depend on the processing

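The summed interferon and contractile ratios kept their side of 1 under every setting tried, whereas the ratio of Acta2 alone turned from 0.567 to 1.44 in Y-linked cells. No paired analysis was possible because the pool is 1 library without replicates. Counting members at 2 or more UMIs gave shares of 32.6% of all cells and 90.6% of hashtag 1, and at 6 or more 21.7% and 71.2%, with a summed interferon ratio of 2.56. Thinning to 5000 UMIs gave shares of 23.1% and 79.0%, an interferon ratio of 2.57, a contractile ratio of 0.869 and 245 genes lower. Without Scrublet doublets the shares were 25.4% and 87.5%, the ratios 2.80 and 0.683 and 260 genes were lower. Requiring the highest hashtag to be 3 times the next gave 88.5% and ratios of 2.25 and 0.709, and reweighting the comparison cells to the depth of the interferon-responding cells gave 2.71 and 0.733. Against cells with 0, 1 or 2 UMIs the ratios were 1.72 and 0.896, with 99 genes higher and 64 lower. Without the filter on low levels 783 genes were higher and 2434 lower, many resting on few UMIs, and at a fold of 1.5 the counts were 790 and 643. In 2 subsets of hashtag 1 chosen after the data were seen, cells that held Y-linked but no Xist UMIs gave 91.0%, ratios of 2.09 and 0.896 and counts of 506 and 231, and cells with over 400 hashtag 1 UMIs gave 91.3%, ratios of 2.58 and 0.819 and counts of 611 and 338, on 53 and 44 comparison cells. The remaining 21 of 59 recomputed values stayed within the counting interval or, for counts of genes, within 1.5 times. The 158 comparison cells limit the precision of the ratios between interferon-responding cells and cells with none in hashtag 1, and 1 pool gives no error between cultures.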
